A study of Mus musculus with 12 samples.

Results

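The MOR103 genes are a family of odorant receptor (OR) genes of the mouse that includes Olfr2, the receptor for aldehydes such as octanal. The 10 genes described here are Olfr2, Olfr5, Olfr6, Olfr522, Olfr711, Olfr1336, Olfr1346, Olfr1347, Olfr1414 and Olfr1416, out of 984 OR genes whose mean log2 level was above 5 and 1015 with a probe set of their own. They were listed by family name, with differences between the sides already known for several of them, so that their counts describe these arrays and are not independent support for a direction. Each had exactly 1 probe set that carries its symbol alone, and all 10 lay above the level of 5. All 10 carry a MOR103 name among their RefSeq synonyms, as do 7 further genes, for which values are given beside those of the 10.

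Gene expression was measured in main olfactory epithelium (MOE) after unilateral naris occlusion (UNO), in which the right nostril was sealed by electrocautery at 14 days of age and stayed closed for 3 weeks. RNA from either MOE side, open or closed, of wild type (WT) and H2be-KO mice gave 4 groups of 3 samples, each on its own Affymetrix array, 12 arrays in all. H2be-KO mice carry a sequence for a membrane-tagged mCherry (GAP43-mCherry) in place of the coding sequence of the histone variant gene H2be, made in embryonic stem cells, and the founders were bred to C57Bl/6 mice. Mice of all 4 groups had the same nostril closed, so the open side belongs to an operated nose too and no unoperated animal is included. By the labels each sample pooled 2 mice, 1 of each sex, whereas the study's own legends state another number of animals per sample. The titles give an age of 5 weeks where the age tag reads 6 months. Nothing states that an open and a closed sample of the same number came from the same mice, or that samples of a group were other than separate pools.

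Each olfactory sensory neuron expresses a single OR gene from a single allele, and an odorant that binds the receptor opens the cyclic-nucleotide-gated channel through the G protein subunit encoded by Gnal and the adenylyl cyclase encoded by Adcy3. The share of neurons that express a given OR depends on how often the gene is chosen and on how long the neurons live. In bulk tissue, fewer neurons of a type and less receptor RNA in each neuron cannot be told apart. For Olfr1336 the study also used fluorescent in situ hybridization on tissue sections after UNO. It reported that the frequency of neurons expressing this gene was altered between the sides. The study also compared that change between WT and H2be-KO mice, in anterior and posterior regions. With it and its arrays, the study reported weaker UNO changes in H2be-KO mice for many ORs. OR genes lie in clusters along the chromosomes, and the names of the MOR series group genes by the similarity of their proteins. Olfr2 is the mouse counterpart of the rat receptor I7.

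The 10 genes lie at 4 places in the annotation (RefSeq, GRCm38.p6). Olfr1414 and Olfr1416 lie on chromosome 1 with Olfr1415 between them. The other 8 are on chromosome 7, where Olfr1336, Olfr1346, Olfr5 and Olfr1347 follow each other, Olfr6, Olfr711 and Olfr2 follow each other among the receptors that are not pseudogenes, and Olfr522 stands apart from both groups. Of the 10, 9 have a window of sequence around their annotated start, and in 5 of those the annotated gene begins at the start codon. The first 50 coding bases are shown for 3 pairs, with the start codon in capitals. They are the pairs with the most identical bases among MOR103 genes whose annotated gene begins at the start codon. Bases were compared position by position from the annotated start, without gaps. Counted in this way other nearby members shared fewer bases, such as Olfr1346 and Olfr1347 with 18 of 50. The first 50 bases of Olfr1347 hold a further ATG in the same frame. Its likeness from there was not tested, so the low count may reflect where the annotated start lies. Whether these bases bear on what a probe set reads was not tested. Olfr1416 and Olfr1415 on the minus strand of chromosome 1 (chr1:92480570-92480619 and chr1:92491704-92491753) did not differ at any of the 50 bases.
Olfr1416: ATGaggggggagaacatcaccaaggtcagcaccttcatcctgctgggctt
Olfr1415: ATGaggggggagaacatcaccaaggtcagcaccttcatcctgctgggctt
Olfr522 and Olfr524, which are separated by Olfr523, shared 32 of 50 bases (chr7:140162899-140162948 and chr7:140202719-140202768, both on the minus strand).
Olfr522: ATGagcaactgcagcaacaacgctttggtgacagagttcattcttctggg
Olfr524: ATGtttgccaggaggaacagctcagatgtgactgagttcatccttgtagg
Olfr1346 and Olfr1348 shared 30 of 50 bases without gaps (chr7:6474112-6474161, plus strand, and chr7:6502175-6502224, minus strand).
Olfr1346: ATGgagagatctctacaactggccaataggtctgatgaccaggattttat
Olfr1348: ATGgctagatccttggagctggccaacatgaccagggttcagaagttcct

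In WT mice 9 of the 10 genes had a higher closed-side mean than open-side mean (51.9% of OR genes), and 6 of them were called higher, that is, with an adjusted p under 0.05 in limma over all 32615 probe sets above the level of 5. Olfr522 was called lower, and Olfr2, Olfr5 and Olfr1346 were not called. Among the 984 OR genes 3.76% were called higher and 1.12% lower by the same rule. The median log2 difference, closed minus open, was 0.68 for the 10 genes and 0.013 for all OR genes. In H2be-KO mice 5 of the 10 were called higher and 0 lower, against 3.86% and 1.42% of OR genes, with medians of 0.51 and 0.042, and 9 had a higher mean on the closed side (56.4% of OR genes). Averaged over the genotypes 8 were called higher and 0 lower, against 10.1% and 4.88% of OR genes. With p-values adjusted over the 984 OR genes alone, as in the methods of the study, 7 were higher and 1 lower in WT mice (9.15% and 3.86% of OR genes) and 7 were higher and 0 lower in H2be-KO mice (8.03% and 3.96%). The 3 closed arrays lay wholly above the 3 open arrays for 8 of the 10 in WT mice and for 7 of the 10 in H2be-KO mice, where 17.6% and 20.1% of OR genes did so. They lay wholly below for 1 in WT mice, Olfr522, and for 0 in H2be-KO mice, against 10.4% and 11.8%. With the 6 WT arrays fitted alone, 2 members, Olfr1414 and Olfr711, were called in WT mice instead of 7. The share of OR genes called in that fit is not given here.

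**Figure D1:**
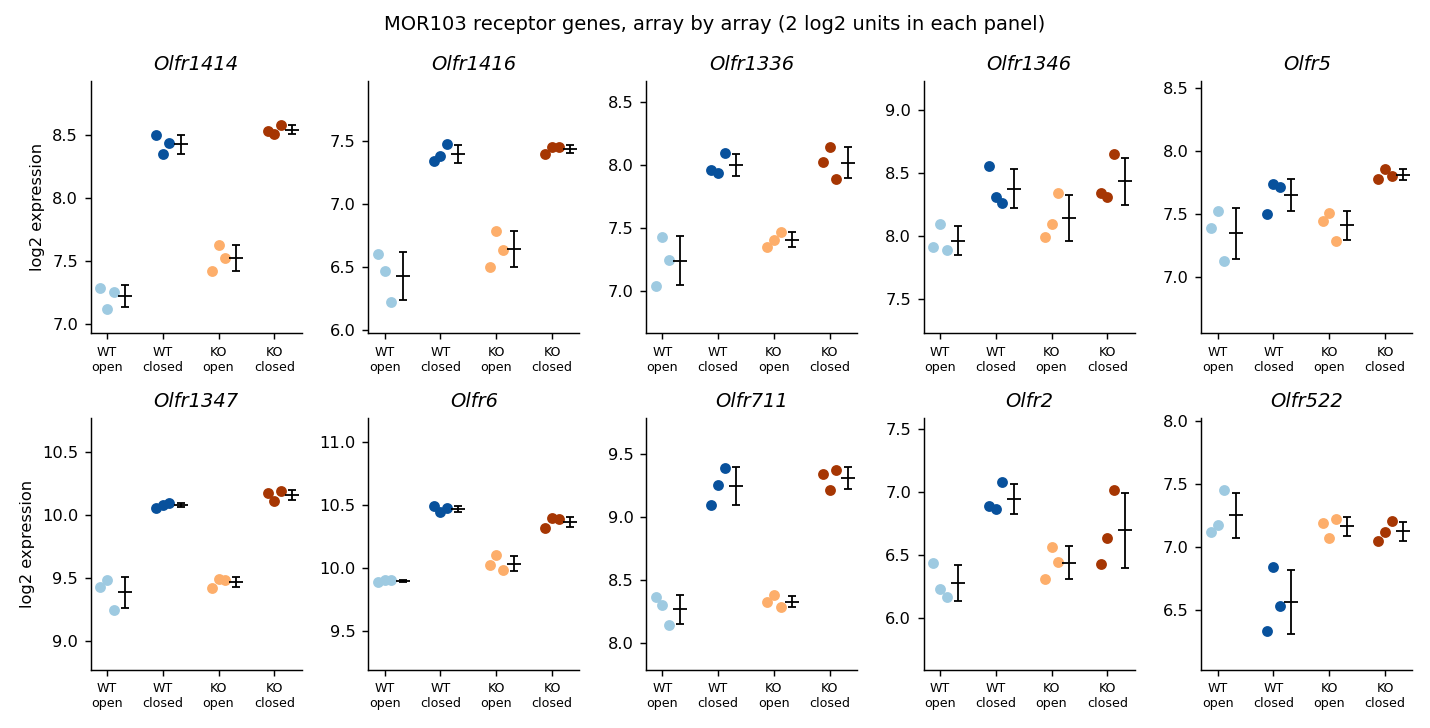
Log2 expression of the 10 MOR103 genes, with 1 point per array in each of the 4 groups and a black bar for the mean ± SD (n = 3) beside the points. Every panel spans 2 log2 units, so steps can be compared between panels but not levels; Olfr1414 and Olfr711 have the largest mean differences between the sides in both genotypes, and the 3 WT closed arrays of Olfr522 lie below its other 9.

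Olfr1414 had the largest difference of all 984 OR genes in both genotypes. Its log2 level was 7.28, 7.12 and 7.25 on the 3 WT open arrays and 8.49, 8.34 and 8.44 on the 3 WT closed arrays. On the H2be-KO arrays it was 7.42, 7.62 and 7.52 (open) and 8.53, 8.51 and 8.58 (closed). Every closed array stood above every open array of either genotype. The difference was 1.21 in WT mice (standard error 0.087, adjusted p = 0.000102, 2.31-fold) and 1.02 in H2be-KO mice (adjusted p = 0.000271, 2.03-fold).

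Olfr1416, which lies beyond Olfr1415, was at 6.60, 6.47 and 6.22 on the WT open arrays and at 7.34, 7.38 and 7.48 on the WT closed arrays. On the H2be-KO arrays it was at 6.50, 6.79 and 6.63 (open) and at 7.40, 7.45 and 7.45 (closed). The sides did not overlap, and the 6 closed arrays of both genotypes lay within a narrow range. The difference was 0.97 in WT mice (standard error 0.11, adjusted p = 0.00184) and 0.79 in H2be-KO mice (adjusted p = 0.00534). A further probe set is assigned jointly to Olfr1414, Olfr1416 and Olfr1415, and Olfr1415 has no probe set of its own. That shared probe set differed by 0.87 in WT mice (adjusted p = 0.000859) and by 0.93 in H2be-KO mice (adjusted p = 0.000525). Where the probes lie is not stated in the sources used here, and whether the probe set of Olfr1416 also reads Olfr1415, whose coding start is the same, was not tested.

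Olfr1414 is the only 1 of the 4 members with a start outside the coding sequence (Olfr5, Olfr711, Olfr1336 and Olfr1414) whose window, from 250 bases before to 50 bases after the start, holds the homeodomain core TAATTG, read on both strands. Homeodomain factors such as Lhx2 and Emx2 are known to bind OR promoters. The 100 bases before its start are shown with both copies in capitals, at positions -56 and -18 from the start (chr1:92518516-92518615, minus strand, GRCm38.p6).
Olfr1414: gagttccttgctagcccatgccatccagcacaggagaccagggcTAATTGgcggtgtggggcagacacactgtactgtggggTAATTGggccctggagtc
TAATTG was in 25% of the 4 member windows. This is near its share of 27.47% in the 233 windows of OR genes with a start outside the coding sequence. Of all 32851 windows of the same length 8.0% held it. The variant TAATTA was in none of the 4 member windows and in 18.88% of the 233. The core of the Olf/Ebf site, CCCNNGGG, was in none of the 4 and in 6.87% of the 233. A match of letters is not a binding site, and no binding was measured.

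Olfr711, which lies between Olfr6 and Olfr2, ranked as number 3 among OR genes by its difference in WT mice and as number 2 in H2be-KO mice. Its log2 level was 8.37, 8.30 and 8.15 on the WT open arrays, 9.10, 9.26 and 9.39 on the WT closed arrays, 8.33, 8.38 and 8.29 on the H2be-KO open arrays and 9.34, 9.22 and 9.38 on the H2be-KO closed arrays. Open and closed arrays were apart in both genotypes, and within a side the genotypes overlapped. The difference was 0.98 in WT mice (standard error 0.10, adjusted p = 0.000858) and 0.98 in H2be-KO mice (adjusted p = 0.000808). The difference between the genotypes in this change was 0.00, with a 95% confidence interval of -0.31 to 0.31.

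Olfr6 varied little within its groups. It was at 9.89, 9.90 and 9.90 on the WT open arrays and at 10.49, 10.44 and 10.48 on the WT closed arrays. In H2be-KO mice it was at 10.03, 10.10 and 9.98 when open and at 10.32, 10.39 and 10.39 when closed. The sides did not overlap in either genotype, and the H2be-KO arrays lay inside the gap between the WT open and WT closed arrays, above the former and below the latter. The difference between the sides was 0.57 in WT mice (standard error 0.074, adjusted p = 0.00367) and 0.33 in H2be-KO mice, where it was not called over all probe sets (adjusted p = 0.0670) and was called over OR genes alone (adjusted p = 0.0139). The change in H2be-KO mice was smaller by 0.24 (95% confidence interval of the difference, KO minus WT, -0.47 to -0.0087, adjusted p = 1.00).

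Olfr2, the receptor of the family with the best known ligands, was at 6.43, 6.23 and 6.16 on the WT open arrays and at 6.89, 6.86 and 7.08 on the WT closed arrays. In H2be-KO mice it was at 6.30, 6.56 and 6.44 (open) and at 6.43, 6.63 and 7.02 (closed). The WT sides were apart, while the H2be-KO sides overlapped. KO closed 2 and KO closed 3 stood above all open arrays, and KO closed 3 was the highest of the H2be-KO arrays. The difference in WT mice was 0.67 (standard error 0.14, 95% confidence interval 0.35 to 0.98), which missed the threshold over all probe sets (adjusted p = 0.0642) and passed it over OR genes alone (adjusted p = 0.0112). In H2be-KO mice it was 0.26 (95% confidence interval -0.060 to 0.57, adjusted p = 0.611), and 0.094 without KO closed 3. The difference between the genotypes was -0.41 (95% confidence interval -0.86 to 0.035, adjusted p = 1.00), an interval that holds both 0 and the loss of the whole WT change. Averaged over the genotypes Olfr2 was higher on the closed side by 0.46 (adjusted p = 0.0330), a call that was lost without any array but WT open 1, KO open 2 and KO closed 1 (adjusted p up to 0.0958).

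Olfr1336 and Olfr1347 lie at both ends of the run of 4 members. Olfr1336 was at 7.04, 7.43 and 7.25 on the WT open arrays, 7.96, 7.94 and 8.10 on the WT closed arrays, 7.35, 7.41 and 7.47 on the H2be-KO open arrays and 8.03, 8.14 and 7.89 on the H2be-KO closed arrays. Olfr1347 was at 9.43, 9.48 and 9.25, then 10.06, 10.08 and 10.09, then 9.42, 9.49 and 9.48, and then 10.18, 10.11 and 10.19 in the same order of groups. For both genes every closed array exceeded every open array of either genotype. Olfr1336 differed by 0.76 in WT mice (adjusted p = 0.00836) and 0.61 in H2be-KO mice (adjusted p = 0.0244), and the H2be-KO call was lost without any 1 of the 3 KO open arrays, KO closed 1 or KO closed 2 (adjusted p up to 0.126). Olfr1347 differed by 0.69 in both genotypes (adjusted p = 0.00273 in WT and 0.00225 in H2be-KO mice).

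Olfr1346 and Olfr5, the genes between them, were not called in either genotype over all probe sets. Olfr1346 spanned 7.88 to 8.09 on the WT open arrays, 8.26 to 8.55 on the WT closed arrays, 7.99 to 8.34 on the H2be-KO open arrays and 8.31 to 8.65 on the H2be-KO closed arrays. Its WT sides were apart by a narrow gap and its H2be-KO sides overlapped, with differences of 0.41 (adjusted p = 0.259) and 0.29 (adjusted p = 0.459). Olfr5 spanned 7.13 to 7.52, 7.51 to 7.74, 7.29 to 7.51 and 7.78 to 7.86 in the same order, so that its WT sides overlapped and its H2be-KO sides did not. Its differences were 0.31 (adjusted p = 0.387) and 0.40 (adjusted p = 0.182, and 0.0414 over OR genes alone). Its change was larger in H2be-KO mice by 0.094, with a 95% confidence interval of -0.26 to 0.45.

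Olfr522 went the other way in WT mice. It was at 7.12, 7.17 and 7.45 on the WT open arrays and at 6.33, 6.83 and 6.52 on the WT closed arrays. In H2be-KO mice it was at 7.19, 7.07 and 7.22 (open) and at 7.04, 7.12 and 7.20 (closed). The 3 WT closed arrays lay below all other 9, which overlapped with each other. Olfr522 fell by 0.68 on the log2 scale in WT mice (standard error 0.13, adjusted p = 0.0376), a call that was kept only when WT closed 2 was the array left out (adjusted p up to 0.163 without another), and differed by -0.04 in H2be-KO mice (95% confidence interval -0.33 to 0.25, adjusted p = 0.964). The difference between the genotypes was 0.64 (standard error 0.19, 95% confidence interval 0.24 to 1.05). It did not pass the test (adjusted p = 1.00), and by its size it ranked as number 4 of the 984 OR genes. On the closed side the H2be-KO mean was higher than the WT mean by 0.56 (95% confidence interval 0.27 to 0.84, adjusted p = 0.999).

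**Figure D2:**
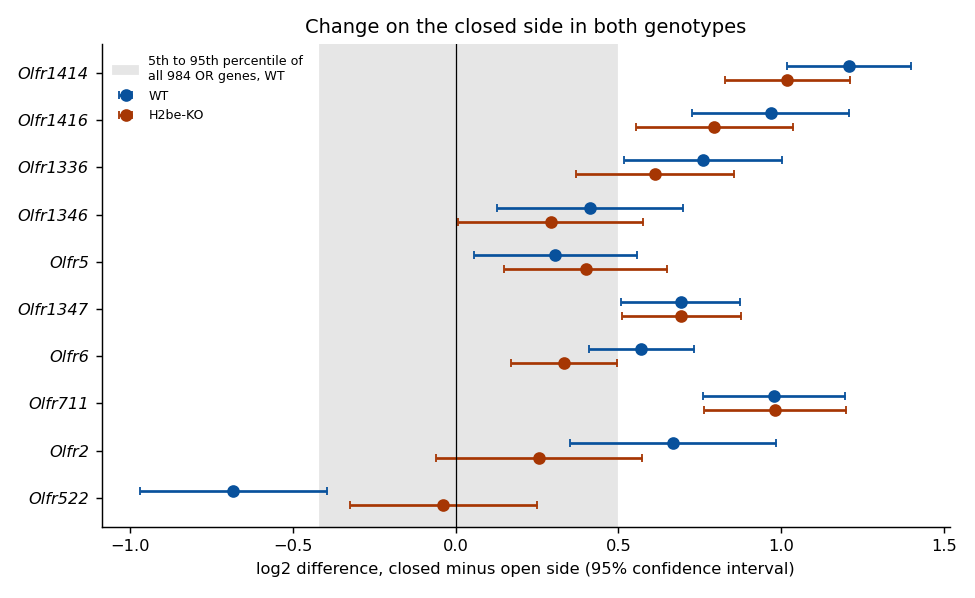
Log2 difference between the closed and the open side of each MOR103 gene with its 95% confidence interval, in WT (blue) and H2be-KO mice (brown), over a grey band from the 5th to the 95th percentile of the 984 OR genes in WT mice. In WT mice 7 of the 10 points lie above the band and Olfr522, at -0.68, lies below it, and Olfr522 is the only 1 of the 10 whose intervals in the genotypes do not overlap.

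No member passed the test between the genotypes. The H2be-KO mean was above the WT mean for 9 of the 10 on the open side and for 8 of the 10 on the closed side, where 46.2% and 46.8% of OR genes were above. In limma 0 members were called on either side (0% of OR genes), with 1 on each side at an unadjusted p under 0.05, Olfr1414 on the open side and Olfr522 on the closed side (6.91% and 6.71% of OR genes). Olfr1414 was higher in H2be-KO mice by 0.30 on the open side (95% confidence interval 0.11 to 0.50, adjusted p = 0.641), where the 3 H2be-KO arrays lay above the 3 WT arrays. Comparing the UNO effect of both genotypes, 0 members were called (0% of OR genes), and 2, Olfr522 and Olfr6, had an unadjusted p under 0.05 (3.35% of OR genes). The change was smaller in size in H2be-KO than in WT mice for 7 of the 10, in the range of 5.66% (Olfr522) to 84.3% (Olfr1414) of the WT change. The same held for 71.9% of the 128 OR genes called in WT mice over OR genes alone, a set chosen by its WT values. Of all OR genes it held for 50.7%. The comparisons share their arrays, so these counts are not independent of each other.

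Of the 7 other genes with a MOR103 name, 6 had a probe set of their own, all above the level of 5, and 4 of these were called higher in each genotype. Olfr220 (0.63 in WT and 0.53 in H2be-KO mice), Olfr449 (0.59 and 0.49), Olfr1348 (0.62 and 0.53) and Olfr524 (0.62 and 0.62) were those 4, with adjusted p from 0.00293 to 0.0369. Olfr414 differed by 0.42 and 0.24 and Olfr750 by -0.23 and -0.06, and neither was called in a genotype. Olfr750, alone on chromosome 14, was the only 1 of the 6 with a lower mean on the closed side. These 6 genes were looked at after the values of the 10 were known.

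**Figure D3:**
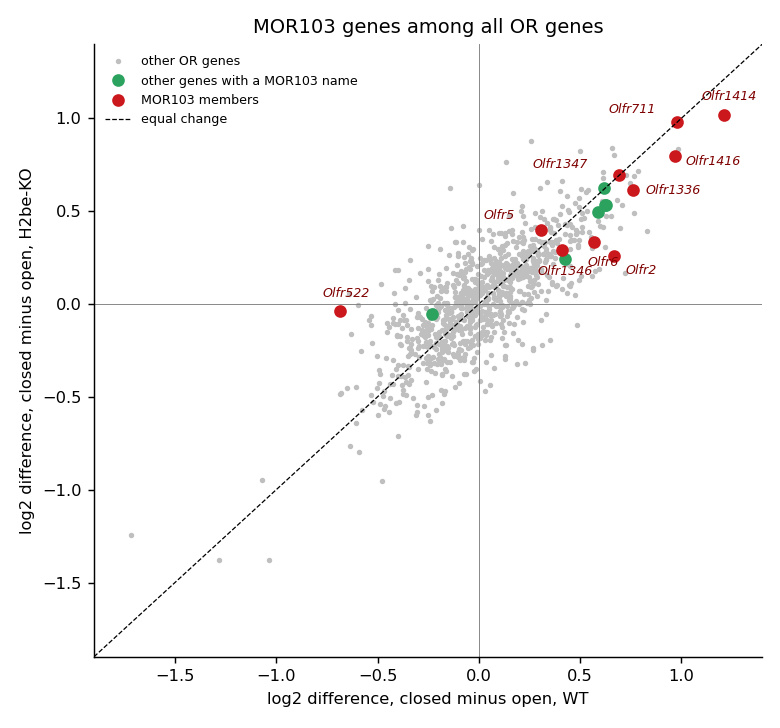
Log2 difference between the closed and the open side in WT (horizontal) and H2be-KO mice (vertical) for 984 OR genes, with the 10 MOR103 genes in red, 6 further genes with a MOR103 name in green and a dashed line where both changes are equal. Olfr1414 is at the upper right end at 1.21 and 1.02, and Olfr522 is far to the left of the line at -0.68 and -0.04.

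The 3 nearest OR genes on each side of each member gave 16 receptors without a MOR103 name, of which 0 were called higher and 1 lower in WT mice and 0 were called in H2be-KO mice by limma over all probe sets (4 and 6 at an unadjusted p under 0.05). Among the 984 OR genes, 3.76% were called higher and 1.12% lower in WT mice and 3.86% and 1.42% in H2be-KO mice, and 252 and 262 had an unadjusted p under 0.05. For the average of the genotypes 1 of the 16 neighbours was called higher and 2 lower, where 10.1% and 4.88% of OR genes were. The median difference of the 16 neighbours was -0.089 in WT and -0.0075 in H2be-KO mice. Olfr1413, next to Olfr1414, differed by -0.06 and 0.06, and Olfr710 and Olfr713, which flank the run of Olfr6, Olfr711 and Olfr2, by 0.06 and -0.26 in WT mice. The 1 neighbour called lower in WT mice was Olfr523 (-0.51, adjusted p = 0.0323), which lies next to Olfr522 and before Olfr524. Along that stretch of chromosome 7 the order of WT differences was therefore -0.68, -0.51 and 0.62 in OR genes that follow each other. Olfr1349, beyond Olfr1348, differed by 0.35 and 0.42 and was not called in WT or H2be-KO mice taken singly (adjusted p = 0.221 and 0.114). The genes called in both genotypes among the neighbours were Olfr1348 and Olfr524, both of which have a MOR103 name.

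**Figure D4:**
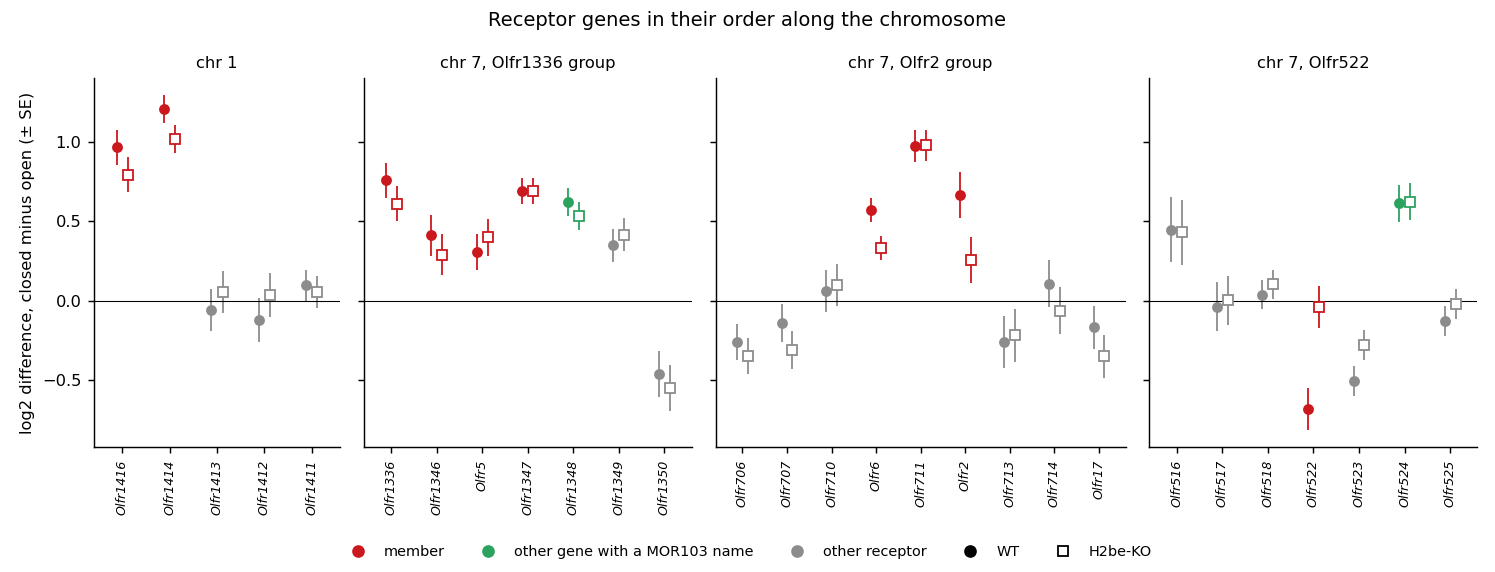
Log2 difference between the closed and the open side (± standard error) of OR genes with a probe set of their own in their order along the chromosome at the 4 places with MOR103 genes, with filled circles for WT and open squares for H2be-KO mice. Members (red) and other genes with a MOR103 name (green) stand above 0 except Olfr522, and the grey neighbours lie between -0.55 and 0.45.

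Across the 12 arrays the 9 members other than Olfr522 varied together, with Pearson's r from 0.61 to 0.99 over 36 pairs, and Olfr522 varied against each of them (r from -0.71 to -0.35). These correlations describe arrays that share the closed and open groups. Of 19390 genes with a symbol, the levels most like those of Olfr2 were Olfr168 (r = 0.949), Gpm6a (0.934), Zfand4 (0.908), Olfr1212 (0.906) and Rfc1 (0.902). The levels most like those of Olfr1414 were Dcdc2a (0.982), Gm11992 (0.982), Abhd3 (0.981), B830017H08Rik (0.981) and Ccdc126 (0.981). Each of these 10 genes also had a higher mean on the closed side in both genotypes, from 0.09 to 1.47 on the log2 scale.

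Olfr2 is 1 of 4 receptors whose neurons the study stimulated with odors in a separate experiment, together with Olfr16, Olfr73 and Olfr958. In WT mice the other three differed by -0.22, 0.27 and 0.09 between the sides and in H2be-KO mice by -0.23, 0.22 and 0.16, and none of the 4 was called in either genotype by limma (1 in WT mice, Olfr2, and 0 in H2be-KO mice at an unadjusted p under 0.05). The receptors used there as controls, Olfr167 and Olfr653, differed by 0.38 and 0.28 in WT and 0.25 and 0.15 in H2be-KO mice, without a call. At an unadjusted p under 0.05 in limma there was 1 in WT mice, Olfr167, and 0 in H2be-KO mice. The closed arrays of Olfr167 lay above its open arrays in both genotypes.

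Genes through which ORs signal and reach the cell surface differed between the sides as well. Of 19 such genes 2 were called higher and 1 lower in WT mice and 4 higher and 0 lower in H2be-KO mice (0.475% and 0.705% of all probe sets were called higher, 0.38% and 0.34% lower), with medians of 0.22 and 0.26. Pde4a, a phosphodiesterase that breaks down cAMP, was higher by 0.48 and 0.66, and Cnga4, which encodes part of the transduction channel, by 0.37 and 0.42, both called in each genotype. Arrb2, which encodes a beta-arrestin, was called lower in WT mice (-0.42, adjusted p = 0.0439) and not in H2be-KO mice (-0.06). Averaged over the genotypes 9 were higher and 0 lower (1.66% and 1.23% of all probe sets), among them Gnal (0.31), Adcy3 (0.29) and Rtp1, a chaperone that carries ORs to the membrane (0.27).

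Cell type markers also differed between the sides. The 11 markers of mature olfactory neurons, 10 of which are also in the list just given, had a median difference of 0.26 in WT and 0.31 in H2be-KO mice, with 1 and 3 called higher, and their mean log2 level per array ranged from 11.2 to 11.3 on the open and from 11.4 to 11.6 on the closed side. Omp, the defining marker, differed by -0.01 and 0.06. The 6 markers of immature neurons had medians of -0.30 and -0.28, with 1 called lower in each genotype, and their mean level per array ranged from 9.85 to 9.97 on the open and from 9.56 to 9.69 on the closed side. Averaged over the genotypes, 8 of the 11 mature markers were called higher and 5 of the 6 immature markers lower, where 1.66% of all probe sets were called higher and 1.23% lower. Of 5 sustentacular and 6 respiratory markers 0 were called in either genotype in limma, and 1 in each genotype of the respiratory ones and 0 of the sustentacular ones had an unadjusted p under 0.05. Of 6 markers of basal and progenitor cells 0 were called in either genotype in limma (1 in each at an unadjusted p under 0.05), and averaged over the genotypes Neurod1 was called lower (-0.27, adjusted p = 0.0429). The part of these differences in those of the MOR103 genes was not tested, and the median of all OR genes was 0.013 and 0.042. H2be itself was at 11.55 to 11.75 on WT and 11.31 to 11.46 on H2be-KO arrays, and its probe set did not pass the test between genotypes on either side (adjusted p = 0.641 and 0.999), as far as it reads a transcript whose coding sequence was replaced. Array medians were between 7.21 and 7.30, and r between 2 arrays was 0.972 to 0.985 within a group and 0.968 to 0.984 across groups.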

How the data were processed

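RNA from each side of the MOE was hybridised to 12 Affymetrix Mouse Gene 1.0 ST arrays. In Affymetrix Expression Console the authors applied sketch-quantile normalization and IterPLIER summarisation, and the deposited values are log2 levels, 1 per probe set and array. No version of that program is given in the sources used here. Levels of different probe sets were not compared.

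With limma 3.58.1 in R 4.3.3, 1 mean per group was fitted to 32615 of 35556 probe sets (mean log2 above 5), with eBayes and Benjamini-Hochberg adjustment over all of them. Tests were two-sided with a threshold of 0.05. Each test had 11.5 degrees of freedom, and the median standard error was 0.134 for closed minus open in WT mice. It was smaller for the average of the genotypes and larger for the difference between them. For Olfr2 these were 0.10 and 0.20, beside 0.14 in WT mice. How often a difference between the genotypes would be found was not simulated. In simulated data for closed minus open in WT mice, over 32615 probe sets, log2 changes of 0.5 were found in 30% of 100 and changes of 1 in 79% of 100, and 4.39% of calls were false. Members and gene lists were chosen with earlier results of these data known. The members, up to 3 neighbours on each side and the 5 most correlated genes were chosen by rule. The gene lists were fixed, but which of their genes are named in the text was not set by rule. The other MOR103 genes were added after values were seen. Symbols came from the platform annotation and sequences from RefSeq (GRCm38.p6). The number of arrays limits the precision. P-values set each difference against the spread between samples of a group, estimated over all 4 groups and moderated by eBayes. The spread between single mice was not measured. Same-numbered samples were not treated as pairs.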

Additional observations from a re-analysis of the deposited data

How the results depend on the processing

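No recomputed value of a member changed sign under any alternative run. Between the genotypes, the runs that left out an array gave values of single members only for a few comparisons. These were Olfr1414 on the open side, Olfr522 on the closed side, and the difference in closed minus open of Olfr6 and Olfr522. Whether the sign of the other differences between the genotypes holds without an array was not tested. Of the 730 recomputed member values, 662 kept their side of the threshold, 17 passed it newly and 51 no longer passed. Fitting the compared groups alone reduced the called members in WT mice from 7 to 2 (Olfr1414 and Olfr711, both higher), with fewer arrays behind each test. With a replicate block that ties an open to a closed sample of the same number, the called members became 5 in WT mice, 3 in H2be-KO mice (from 5) and 6 on average (from 8). Only 2 of 6 such pairs deviated together with r above 0.1 (-0.009 to 0.23), and 3 of the 6 correlated best with their own number. With 3 samples per group these correlations cannot show whether same-numbered samples came from the same mice. Leaving out each of the 12 arrays gave 6 to 7 called members in WT mice, 4 to 5 in H2be-KO mice, 6 to 7 on average and 0 for each comparison between the genotypes. The shares of OR genes called in these alternative runs are not given here. Whether members lost calls more often than OR genes in general was therefore not tested.

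The call of Olfr522 in WT mice was also lost with no filter (adjusted p = 0.0504), array weights (0.0610), the compared groups alone (0.293), the replicate block (0.107) and centring on the OR median (0.0535). The call of Olfr2 in WT mice was gained with a trended robust prior (0.0388) and without KO closed 1 (0.0487) or KO closed 3 (0.0314). That of Olfr5 on average was lost without any array but WT open 2 and WT closed 1 (adjusted p up to 0.10). The alternative of averaging a gene's probe sets was not run, since each member has 1. With 3 arrays per group, log2 changes near 0.5 are often missed, so an absent call does not show equal levels.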
